A study of Homo sapiens with 4 samples.

Results

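The platelet-derived growth factor (PDGF) genes examined here were the 4 ligand genes PDGFA, PDGFB, PDGFC and PDGFD and the 2 receptor genes PDGFRA and PDGFRB. They were taken by gene symbol from a count table of 63241 genes, and all 6 were found once each. The cells were LX-2, an established human hepatic stellate cell line, grown in 10% serum and then starved in 0.5% serum for 24 h. The libraries came from cells given TGF-β at 20 ng/mL with BDS4 at 5 µM, TGF-β at 20 ng/mL with RVX-208 at 5 µM, TGF-β at 20 ng/mL alone, or no TGF-β (control), all for 24 h, with 1 library per condition. The sample description of the TGF-β library names DMSO and that of the control does not. Vehicle and TGF-β therefore cannot be told apart in the comparison of these libraries. The descriptions of the BDS4 and RVX-208 libraries name no vehicle. Both differed from the control in TGF-β and compound together, so these cannot be told apart in comparisons with the control. BDS4 is a code name from a study of inhibitors of bromodomain BD1 of the BET proteins, which bind acetylated histones and promote transcription. RVX-208 (apabetalone) is a BET inhibitor that prefers the other bromodomain, BD2. BDS4 does not appear in the name of its data column, which was matched by the code in that sample's description.

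Stellate cells store vitamin A in healthy liver and turn into matrix-producing myofibroblasts after injury, and PDGF is their main mitogen. The ligand chains pair through disulfide bonds and bind receptor tyrosine kinases, which pair in turn and phosphorylate each other. The A, B and C chains activate PDGFRα, while the B and D chains activate PDGFRβ, the receptor that rises on stellate cells as they become activated. The A and B chains are cut by furin-type proteases inside the cell, and the C and D chains are secreted as latent proteins that plasminogen activators or related proteases cut outside it.

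Library totals lay between 17022369 and 22503094 counts. Levels are given as TMM-scaled CPM (counts scaled to a common library size), with the raw counts where they were low. Brackets hold 95% exact intervals, which cover counting error only, and with 1 library per condition no difference could be set against the spread between cultures. The rule for a call, in either direction, was a ratio of at least 2 between 2 libraries with an interval that excluded 1. RNA from whole cultures cannot tell fewer cells that use a gene apart from less of its RNA per cell. The 16 listed stellate and pericyte markers summed to 5002 CPM with BDS4, 7610 with RVX-208, 9027 with TGF-β and 5813 in the control. VIM, a gene of the cytoskeleton, made up 4080, 4052, 3551 and 3290 CPM of these sums in the same order of libraries, and the other markers moved in both directions. Of 10 measured, 2 were called higher and 1 lower with TGF-β against control, 3 higher and 4 lower with BDS4 against TGF-β, and 1 higher and 2 lower with RVX-208 against TGF-β. Of all genes tested, 9.68%, 32.2% and 8.19% were called in these comparisons. With BDS4 the collagen gene COL1A1 stood at 103 CPM, against 4705 with TGF-β, and NGFR, a neurotrophin receptor gene, at 553 CPM, against 24.1 with TGF-β. COL1A2, COL3A1 and TAGLN were also lower with BDS4 than with TGF-β, and RELN and COLEC11 were higher. RELN and COLEC11 reached no more than 1.62 and 1.18 CPM in any library. COLEC11 had 0.453 CPM with TGF-β, so it was tested through a library where it was high. With RVX-208, COL1A2 and COL3A1 were lower than with TGF-β and NGFR higher. ACTA2 had 27.0 CPM with TGF-β and 21.5 in the control, under the 2-fold rule. These markers were named after their values were seen, and their part in the PDGF results was not tested. LRAT had 0 counts in all 4 libraries, and DES and GFAP had no more than 11 counts in any. The hepatocyte list summed to between 1.72 and 3.89 CPM per library and the endothelial list to between 1.86 and 3.26 CPM. The macrophage and leukocyte list, which includes genes that other cells also use, summed to 20.7 CPM with BDS4, 13.2 with RVX-208, 22.8 with TGF-β and 36.0 in the control. The cholangiocyte list summed to 24.3, 51.6, 105 and 57.5 CPM in the same order of libraries, almost all of it from SOX9 and KRT7.

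PDGFB and both receptor genes were higher with TGF-β, so that 3 of 6 PDGF genes were called higher against the control and 0 lower. Of all 16099 genes tested, 5.32% were called higher and 4.37% lower in that comparison, 9.68% in all. With BDS4 on top of TGF-β, 4 of 6 genes were called lower and 1 higher against TGF-β alone, where the background was 17.7% lower and 14.5% higher, 32.2% in all. PDGFB fell 25.3-fold (18.4 to 35.8) and PDGFRB 22.7-fold (18.9 to 27.4), while PDGFD rose 5.06-fold (3.86 to 6.73). With RVX-208, 1 of 6 genes was called lower and 0 higher, against 5.25% and 2.94% of all genes, 8.19% together. That gene was PDGFRB, 2.14-fold lower, with an interval from just under the 2-fold rule to 2.30. PDGFRA reached 1 CPM only with TGF-β alone and with RVX-208, so it was tested through libraries where it was high. With a filter of 5 CPM, which leaves PDGFRA out, 2 genes were higher with TGF-β against control. Under that filter 3 genes were lower with BDS4 against TGF-β, and 3 against RVX-208. The shares of all genes given here hold for the filter of 1 CPM, so the counts at 5 CPM have no background beside them.

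**Figure D1:**
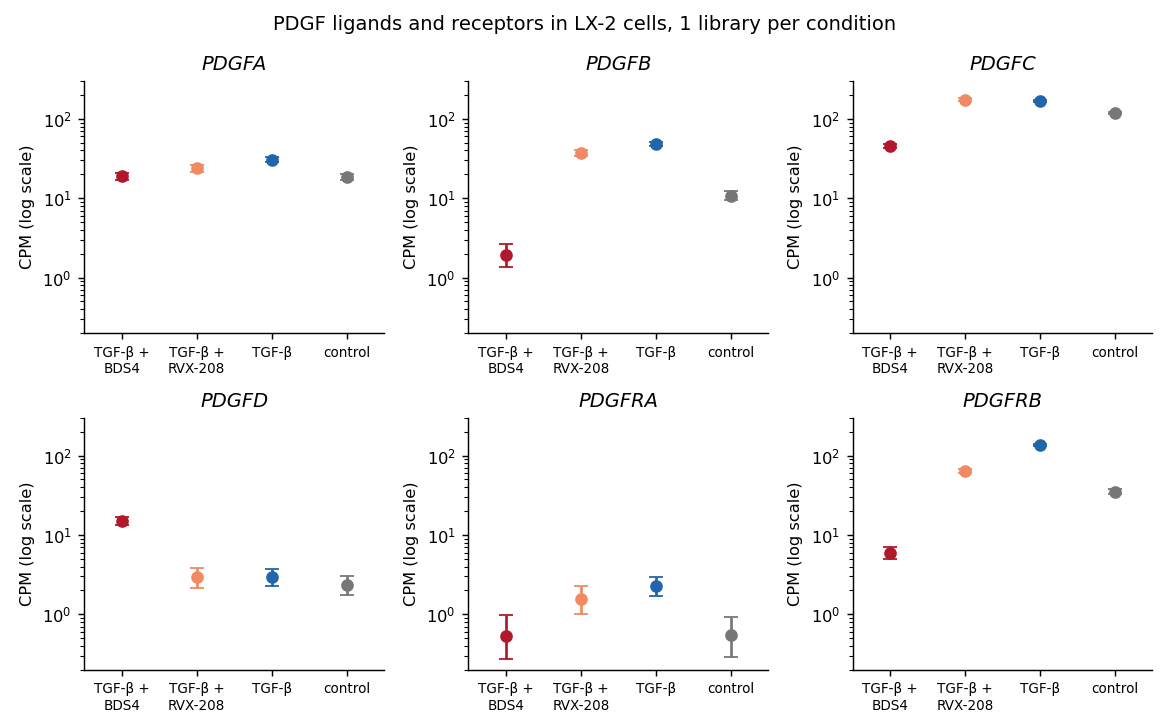
Level of each PDGF gene in each library, in TMM-scaled CPM on a log axis. Points are single libraries and bars are 95% exact Poisson intervals of counting error. PDGFB and PDGFRB are lowest with BDS4 and highest with TGF-β alone, and PDGFD is highest with BDS4.

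RefSeq promoter entries (GRCh38.p14) were matched for 4 of the 6 genes, PDGFA, PDGFD, PDGFRA and PDGFRB. Those of PDGFRB, which fell with BDS4, and PDGFD, which rose, are shown as the pair with the most opposite changes among these genes. Each line gives the 250 bases before the RefSeq start site, 5′ to 3′ on the strand of the gene. Capitals mark matches on either strand to any of 6 motifs: CCAAT box (CCAAT), TATA box (TATAAA), GC box (GGGCGG), SMAD element (CAGAC), AP-1 site (TGANTCA) and E-box (CANNTG).
PDGFRB, chr5:150155846-150156095, minus strand: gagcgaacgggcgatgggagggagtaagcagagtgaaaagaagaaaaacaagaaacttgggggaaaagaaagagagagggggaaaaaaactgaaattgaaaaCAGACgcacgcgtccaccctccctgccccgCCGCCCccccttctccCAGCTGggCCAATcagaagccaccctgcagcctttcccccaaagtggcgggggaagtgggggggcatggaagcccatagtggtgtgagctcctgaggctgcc
PDGFD, chr11:104164148-104164397, minus strand: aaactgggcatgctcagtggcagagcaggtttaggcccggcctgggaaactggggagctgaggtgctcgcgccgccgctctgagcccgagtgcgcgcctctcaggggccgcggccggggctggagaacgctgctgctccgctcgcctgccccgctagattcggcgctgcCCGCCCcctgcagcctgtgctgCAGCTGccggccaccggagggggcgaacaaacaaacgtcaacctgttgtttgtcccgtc
The PDGFRB window held 1 SMAD element, 1 GC box on the opposite strand, 1 E-box and 1 CCAAT box, with no overlap between them. The CCAAT box began at position -94, counted from the start site. The PDGFD window held 1 GC box and 1 E-box. Of 34788 windows of this length, 38.0% held a SMAD element, 42.6% a GC box, 61.8% an E-box, 32.0% a CCAAT box, 10.8% a TATA box and 6.59% an AP-1 site.

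PDGFB encodes the B chain, the ligand that binds both receptors, and lies on chr22:39223359-39244751 (GRCh38, GENCODE 29, minus strand). It had 1.91 CPM (39 counts) with BDS4, 37.0 CPM (623 counts) with RVX-208, 48.4 CPM (1069 counts) with TGF-β alone and 10.8 CPM (258 counts) in the control. Each step in this order of levels exceeded counting error: TGF-β stood highest, then RVX-208, the control and BDS4. With TGF-β the gene was 4.48-fold higher than in the control (3.91 to 5.15), rank 184 from the top among 16099 genes. With BDS4 it was below the control as well, by 5.65-fold (4.02 to 8.13). Between the BDS4 and TGF-β libraries its log2 ratio of -4.60 ranked 48 from the bottom of all genes tested. With RVX-208 it was 1.31-fold lower than with TGF-β (1.18 to 1.45), which did not meet the 2-fold rule, and it was still 3.43-fold above the control (2.96 to 3.98).

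PDGFA encodes the A chain, a ligand of PDGFRα (chr7:497258-520296, minus strand). It had 19.0 CPM with BDS4, 23.9 with RVX-208, 30.7 with TGF-β and 18.5 in the control. No comparison reached the 2-fold rule: TGF-β stood 1.66-fold above the control (1.47 to 1.88), and BDS4 was 1.62-fold below TGF-β (1.42 to 1.84). The BDS4 level and the control level did not differ beyond counting error, with a ratio of 1.03 (0.894 to 1.18).

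PDGFC encodes the C chain, which also acts through PDGFRα (chr4:156760454-156971394, minus strand). It had 45.3 CPM with BDS4, 175 with RVX-208, 168 with TGF-β and 119 in the control. The RVX-208 and TGF-β levels did not differ beyond counting error (ratio 1.04, 0.987 to 1.09), and both were above the control by less than the 2-fold rule. TGF-β gave 1.42 times the control level (1.35 to 1.49). With BDS4 it fell 3.72-fold against TGF-β, with a lower limit of 3.46, and was 2.62-fold below the control (2.43 to 2.82).

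PDGFD encodes the D chain, a ligand of PDGFRβ (chr11:103907186-104164379, minus strand). It had 14.9 CPM (304 counts) with BDS4, 2.91 CPM (49 counts) with RVX-208, 2.94 CPM (65 counts) with TGF-β and 2.34 CPM (56 counts) in the control. Only the BDS4 library stood apart: the RVX-208, TGF-β and control levels did not differ from their neighbours in this order beyond counting error. The gene was 6.36-fold higher with BDS4 than in the control (4.77 to 8.61). DDI1, on the other strand, shares 193 exon bases with PDGFD and had 0 counts in every library.

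PDGFRB encodes PDGFRβ (chr5:150113837-150155872, minus strand). It had 5.98 CPM (122 counts) with BDS4, 63.3 CPM with RVX-208, 136 CPM with TGF-β and 35.0 CPM in the control, and each step in this order of levels exceeded counting error. With TGF-β it was 3.88-fold above the control (3.59 to 4.19). With BDS4 it was 5.85-fold below the control (4.83 to 7.14), and its log2 ratio against TGF-β, -4.48, ranked 61 from the bottom of all genes. With RVX-208 it lay between TGF-β and the control, at 1.81 times the control level (1.65 to 1.98). Among the 6 genes its fall with RVX-208 was the largest. Its interval did not overlap those of PDGFA (1.28-fold lower, 1.13 to 1.46) or PDGFB, but did overlap that of PDGFRA.

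PDGFRA encodes PDGFRα (chr4:54229097-54298247, plus strand) and was the rarest of the 6 transcripts. It had 11 counts with BDS4 (0.539 CPM), 26 with RVX-208 (1.54 CPM), 50 with TGF-β (2.26 CPM) and 13 in the control (0.544 CPM). By the rule it was higher with TGF-β than in the control (4.16-fold, 2.23 to 8.35) and lower with BDS4 than with TGF-β (4.20-fold, 2.16 to 8.94). The intervals are wide at these counts, and the RVX-208 and TGF-β levels did not differ beyond counting error (1.47-fold lower with RVX-208, 0.895 to 2.45). The BDS4 and control levels had a ratio of 0.991 (0.402 to 2.40). The annotated gene AC058822.1, on the same strand, shares 15.8% of the exon bases of PDGFRA and had at most 1 count.

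**Figure D2:**
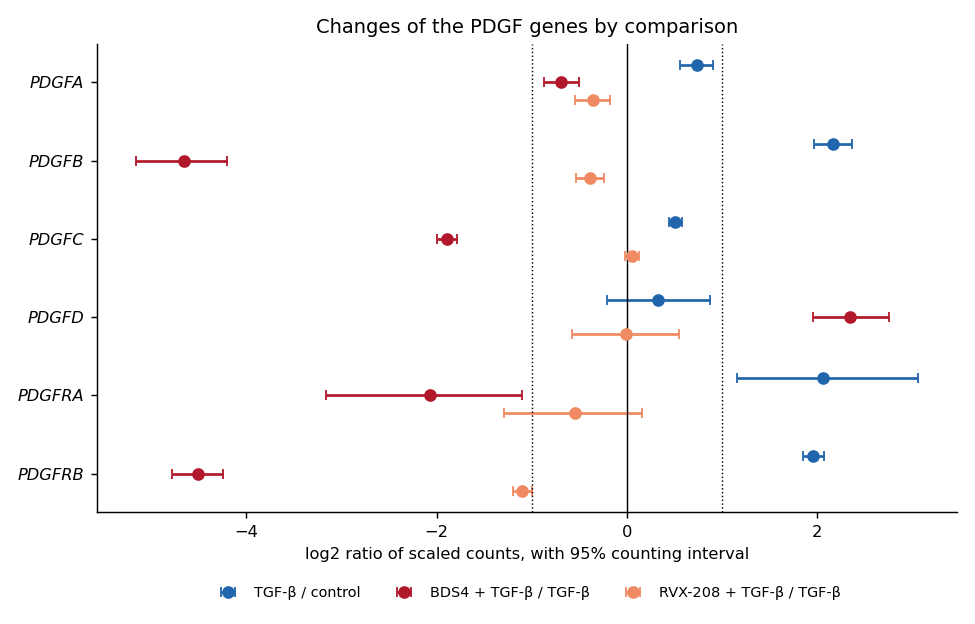
Log2 ratios of the 6 PDGF genes in 3 comparisons, with 95% counting intervals. Dotted lines mark the 2-fold rule. PDGFB and PDGFRB lie beyond -4 with BDS4 and near 2 with TGF-β, PDGFD is the 1 gene above 1 with BDS4, and PDGFRB is the 1 gene below -1 with RVX-208.

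Transcripts listed as measures of RNA quality differed between the libraries as well. Whether the treatments themselves changed these transcripts was not tested. Mitochondrial ribosomal RNA took 0.903% of counts with BDS4, 0.230% with RVX-208, 0.248% with TGF-β and 0.212% in the control. All 4 listed nuclear-retained RNAs were called higher with BDS4 than with TGF-β, beside 14.5% of all genes, NEAT1 standing at 968 and 60.6 CPM. With RVX-208, 2 of these 4 were called higher than with TGF-β and 0 lower (median log2 ratio 0.91), beside 2.94% and 5.25% of all genes. MALAT1 stood at 69.1 CPM with RVX-208 and 24.4 with TGF-β, and NEAT1 at 127 and 60.6 CPM. The part of these measures in the falls of PDGFB, PDGFC, PDGFRA and PDGFRB and the rise of PDGFD with BDS4, and in the fall of PDGFRB with RVX-208, was not tested.

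BDS4 and RVX-208 were given at the same dose and time, so their libraries were also compared directly. Against RVX-208, 4 of 6 genes were called lower with BDS4 and 1 higher, where 13.1% and 11.7% of all genes were, 24.8% together. PDGFB was 19.4-fold lower (14.0 to 27.5), PDGFRB 10.6-fold lower (8.77 to 12.9), PDGFC 3.85-fold lower (3.58 to 4.15) and PDGFRA 2.86-fold lower (1.37 to 6.42). PDGFD was 5.12-fold higher (3.78 to 7.07). PDGFA was 1.26-fold lower with BDS4 (1.09 to 1.45), under the 2-fold rule.

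Set against the control, the BDS4 library had 3 of 6 PDGF genes lower and 1 higher, and 18.2% and 14.9% of all genes were, 33.1% together. The lower ones were PDGFB, PDGFC and PDGFRB. The RVX-208 library had 2 of 6 higher, PDGFB and PDGFRA (2.84-fold, 1.41 to 6.01), and 0 lower, against 5.39% and 6.88% of all genes, 12.3% together.

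To compare the genes with each other, the deposited FPKM values were used, which divide by transcript length and by total counts. The 4 ligands summed to 10.6 FPKM with BDS4, 30.1 with RVX-208, 33.8 with TGF-β and 19.0 in the control. PDGFC was the most abundant ligand mRNA in each library, with 41.0% of the ligand sum with BDS4, 58.1% with RVX-208, 51.0% with TGF-β and 67.0% in the control. PDGFB made up 3.80% of the sum with BDS4, 27.1% with RVX-208, 32.2% with TGF-β and 13.4% in the control. PDGFD made up 27.5% with BDS4 and between 1.82% and 2.70% in the other libraries. Within the ligands of PDGFRβ, PDGFD thus stood at 2.91 FPKM and PDGFB at 0.402 FPKM with BDS4, while PDGFB was the higher of the pair in the other 3 libraries. PDGFRB stood above PDGFRA in each library. In FPKM it was 12.0 times as high with BDS4, 44.2 times with RVX-208, 64.6 times with TGF-β and 69.3 times in the control. These ratios rest on 11, 26, 50 and 13 PDGFRA counts in that order, so they are imprecise, and differences between them were not tested. The lengths behind these FPKM values were longer than the GENCODE 29 exon lengths (9.85 and 5.59 kb for PDGFC). With the GENCODE lengths the PDGFD share with BDS4 was 21.0%. The PDGFB share was then 3.05% with BDS4, 20.7% with RVX-208, 25.2% with TGF-β and 9.89% in the control. PDGFRB then stood 15.1, 55.9, 81.8 and 87.7 times as high as PDGFRA, in the same order of libraries.

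**Figure D3:**
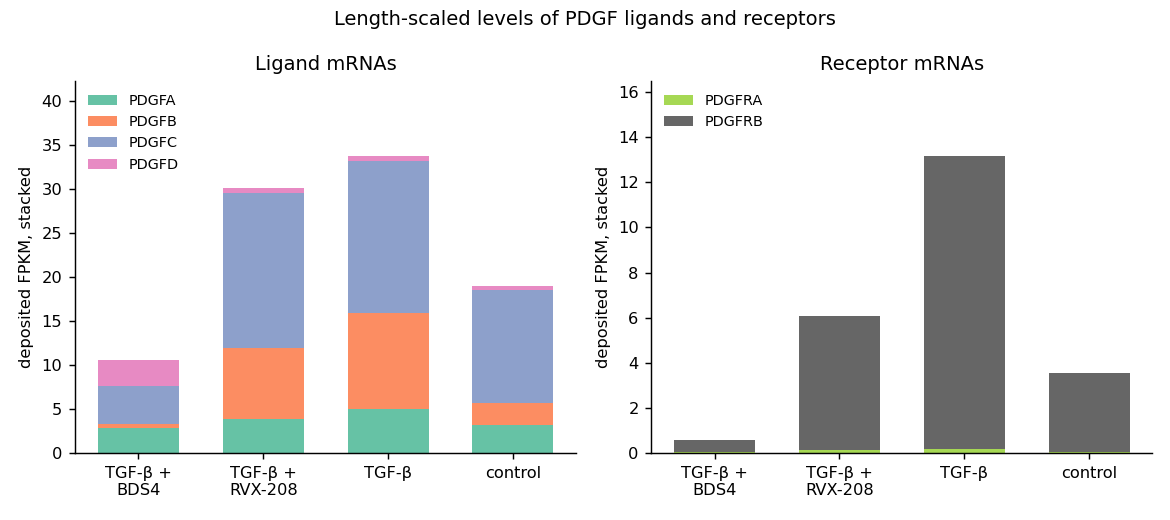
Deposited FPKM values stacked by gene, for the 4 ligands (left) and the 2 receptors (right), in single libraries without error bars. The ligand sum is 10.6 with BDS4 and 33.8 with TGF-β, and the receptor sum, nearly all PDGFRB, is 0.579 and 13.2.

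Genes that act on the ligands were examined next, from lists of the pathway drawn up by role. The shares of all genes called higher and lower stand beside each count, as the background against which it is to be read. Of 5 measured proteases that cut PDGF chains, 1 was called higher and 0 lower with TGF-β against control, beside 5.32% and 4.37% of all genes, with a median log2 ratio of 0.08 beside -0.01 for all genes. PLAU, urokinase, which can activate the D chain, was that gene, with 230 CPM with TGF-β and 86.0 in the control. With BDS4, 2 of 5 were higher and 2 lower (median 0.32, all genes -0.01), beside 14.5% and 17.7% of all genes. PLAU fell to 12.7 CPM with BDS4, 18.1-fold below TGF-β (15.9 to 20.5), and FURIN, which cuts the A and B chains, stood at 89.3 and 183 CPM. PLAT, the tissue plasminogen activator that cuts the C chain, rose 2.25-fold with BDS4 (2.17 to 2.33), and PCSK5, another furin-type protease, had 23.3 CPM with BDS4 and 1.13 with TGF-β. With RVX-208, 2 of 5 rose and 0 fell (median 0.40, all genes 0.00), beside 2.94% and 5.25% of all genes. FURIN rose 2.37-fold (2.28 to 2.46) and PCSK5 rose 2.36-fold (1.42 to 4.02), while PLAU stood at 268 CPM.

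Genes for proteins that bind the ligands or serve as co-receptors had 2 of 8 higher and 1 lower with TGF-β (median 0.05), beside 5.32% and 4.37% of all genes. NRP2, a neuropilin co-receptor, had 274 CPM with TGF-β and 48.7 in the control. With BDS4, 0 of 8 rose and 6 fell (median -1.26), beside 14.5% and 17.7% of all genes. SPARC, a matrix protein that binds the B chain, fell 5.85-fold (5.65 to 6.07), NRP2 fell 5.27-fold (4.93 to 5.63) and LRP1, an endocytic receptor that binds PDGFRβ, fell 2.52-fold (2.41 to 2.64). With RVX-208, 0 of 8 were called in either direction (median -0.50), beside 2.94% and 5.25% of all genes. THBS1, thrombospondin, had 973 CPM with BDS4, 1026 with RVX-208, 2035 with TGF-β and 524 in the control; its ratio of 0.504 with RVX-208 became 0.494 under total-count scaling, which met the rule.

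Adapters and effectors of the activated receptors had 2 of 23 higher and 0 lower with TGF-β (median 0.09), beside 5.32% and 4.37% of all genes. They were STAT5B and VAV2. STAT5B, a transcription factor of cytokine signalling, stood at 113 CPM with TGF-β and 43.1 in the control. VAV2, a guanine nucleotide exchange factor, was 2.02-fold higher, which fell short of the rule when libraries were scaled by total counts (1.92-fold). With BDS4, 2 of 23 rose and 4 fell (median 0.13), beside 14.5% and 17.7% of all genes. These shares of the list were no larger than those of all genes. Lower were the tyrosine kinase SRC (3.70-fold, 3.39 to 4.05), STAT5B (3.86-fold, 3.53 to 4.23), VAV2 (3.28-fold, 3.06 to 3.51) and STAT5A (3.62-fold, 2.63 to 5.06). Higher were YES1, a kinase related to SRC (2.46-fold, 2.31 to 2.62), and PIK3R1 (2.20-fold, 2.05 to 2.37). With RVX-208, 1 rose and 1 fell (median 0.09), beside 2.94% and 5.25% of all genes, and YES1 was the rise (2.37-fold, 2.22 to 2.53).

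Negative regulators of receptor signalling had 1 of 10 higher and 0 lower with TGF-β (median 0.01), beside 5.32% and 4.37% of all genes. It was the adapter gene SH2B3, 2.02-fold higher, and was likewise short of the rule with total counts (1.92-fold). With BDS4, 2 of 10 rose and 0 fell (median 0.45), beside 14.5% and 17.7% of all genes. PTPN1 and ACP1, phosphatases that can act on PDGF receptors, were 1.76-fold (1.69 to 1.84) and 1.81-fold higher (1.67 to 1.96), under the rule. With RVX-208, 0 of 10 were called (median 0.14), beside 2.94% and 5.25% of all genes.

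The ERK pathway lies downstream of PDGF and many other receptors. Its feedback and output genes had 6 of 16 higher and 1 lower with TGF-β (median 0.39), beside 5.32% and 4.37% of all genes. SPRY1, 1 of these 6, had 44 counts with TGF-β, its highest library (1.99 CPM), and 3 in the control. It was thus tested through a library where it was high. With BDS4, 6 of 16 rose and 1 fell (median 0.37), beside 14.5% and 17.7% of all genes. With RVX-208, 0 rose and 1 fell (median 0.09), beside 2.94% and 5.25% of all genes. DUSP6, an ERK phosphatase induced by ERK itself, had 999 CPM with BDS4, 143 with RVX-208, 87.9 with TGF-β and 27.8 in the control. The relation of these genes to PDGFRB, and the part of RNA quality in the BDS4 library, were not tested. EGR1 rose 4.53-fold with BDS4 (4.33 to 4.75) and FOS 7.66-fold (5.90 to 10.1), both immediate early transcription factors. CCND1, cyclin D1, was the gene that fell with BDS4, to 360 CPM against 1280 with TGF-β.

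**Figure D4:**
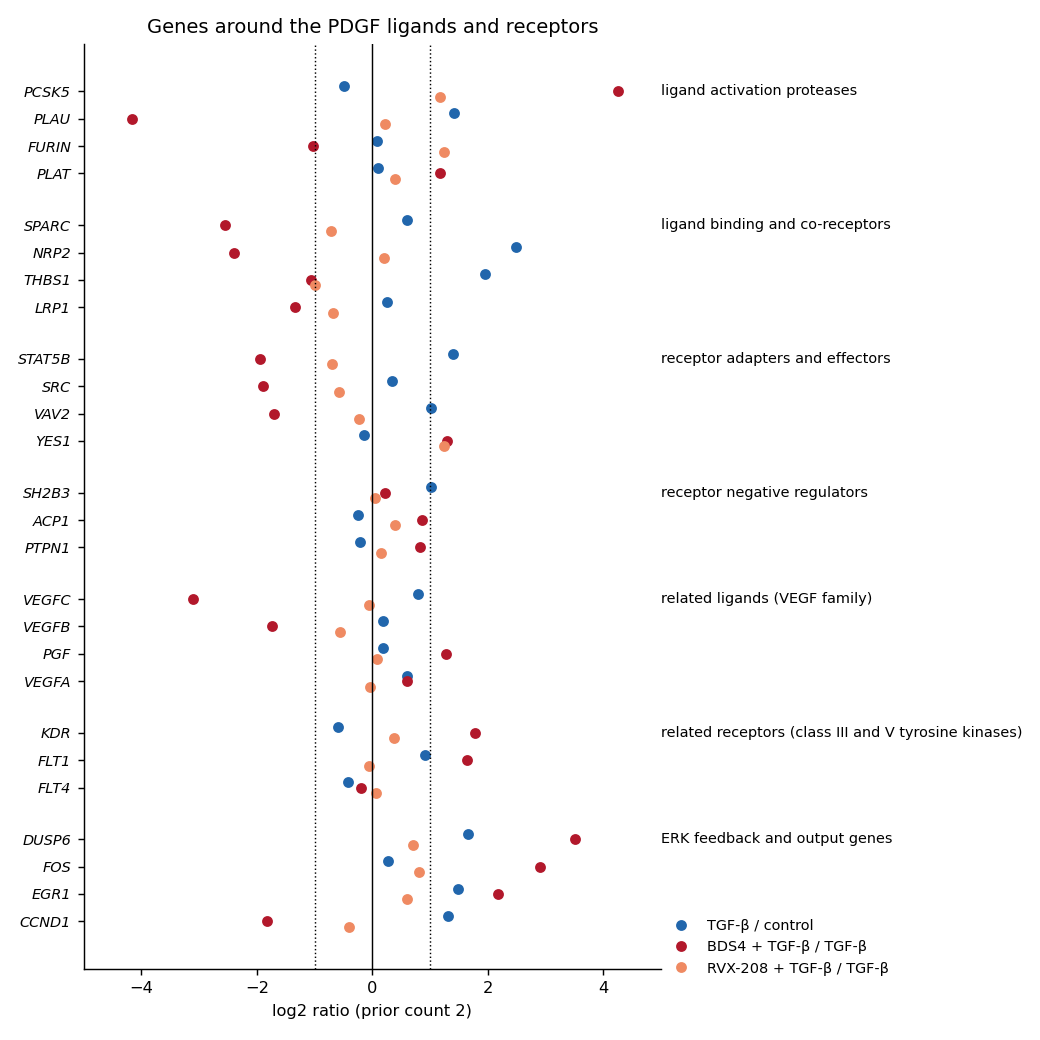
Log2 ratios (prior count 2) of up to 4 genes per list, those with the largest changes among genes reaching 10 CPM, in 3 comparisons. Each point compares 2 single libraries and dotted lines mark the 2-fold rule. PLAU, VEGFC, SPARC and NRP2 lie lowest with BDS4, and PCSK5 and DUSP6 highest.

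For each PDGF gene, the genes with the most similar levels over the 4 libraries were sought among 10448 candidates reaching 10 CPM. Likeness was measured by the largest gap between centred log2(CPM + 0.5) profiles. Candidates had a symbol, were not PDGF genes, and were protein-coding or, if absent from GENCODE 29, of unknown type. The nearest to PDGFB were PLAU (gap 0.38), LIF (0.43) and GBP4 (0.58), and the nearest to PDGFRB were COL6A3 (0.32), ZNF618 (0.34) and WNT5A (0.35). PLAU stood higher with RVX-208 than with TGF-β (268 and 230 CPM), while PDGFB stood lower (37.0 and 48.4 CPM). LIF, a cytokine gene, had 5.20 CPM with BDS4, 74.1 with RVX-208, 106 with TGF-β and 16.0 in the control. COL6A3, a collagen VI chain, had 8.73, 78.5, 250 and 51.6 CPM in the same order of libraries. No candidate came within 0.25 of PDGFB or PDGFRB, whereas 244 did so for PDGFA and 38 for PDGFC. A fixed log2 gap is easier to meet for a gene that moves little, so these counts do not rank how unusual the patterns are. The nearest to PDGFA were PLXNA1, ERVK3-1 and ARMC9 (gaps of 0.02 to 0.04), and the nearest to PDGFC were INPP4B, TAGLN2 and EVA1A (0.06 to 0.08). ERVK3-1 shares 17.4% of its exon bases with other genes on its strand. With their counts summed, its direction turned in all 3 comparisons: the ratio was above 1 with BDS4 against TGF-β, 1.22 with RVX-208 against TGF-β and 0.915 with TGF-β against control, so its likeness to PDGFA is uncertain. The nearest to PDGFD were NCAM2, MAP1LC3B2 and H2BP1 (0.17 to 0.18), of which MAP1LC3B2 has a close paralogue and H2BP1 is not in GENCODE 29, so their counts are uncertain. The nearest to PDGFRA were FOXC2, CTDSPL and PIK3CD (0.08 to 0.13). The added 0.5 CPM is close to the PDGFRA level with BDS4 (0.539 CPM) and in the control (0.544 CPM). It shrinks the changes of PDGFRA, so the likeness of PDGFRA to these genes is uncertain. With TGF-β against control PDGFRA was 4.16-fold higher and FOXC2 2.82-fold. To a smaller degree the added 0.5 CPM also shrinks the changes of PDGFB (1.91 CPM with BDS4) and PDGFD (2.34 CPM in the control).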

How the data were processed

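The deposited table holds raw gene counts and FPKM values for 4 libraries. Per the series' design text, a stranded paired-end mRNA kit was used and the authors made the FPKM values with StringTie 1.3.0. Per the submitters' processing notes, reads were processed with CASAVA 1.8 and TopHat2 2.0.6 on GRCh38. For the counting program, the annotation release and strandedness in counting: not given in the sources used here. In 9069 genes with over 200 counts in every library, FPKM followed count divided by library total and 1 length per gene to within 0.00042%.

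The deposited counts were scaled by TMM (edgeR 4.0.16, R 4.3.3), with factors of 0.943 with BDS4, 0.989 with RVX-208, 1.01 with TGF-β and 1.06 in the control. Every gene reaching 1 CPM in any library was tested, and all 6 PDGF genes passed, PDGFRA through the libraries where it was higher. A floor of 3 counts was 0.126 to 0.178 CPM. Ratios have 95% conditional exact (Clopper-Pearson) intervals, and levels exact Poisson intervals. Reads without molecular identifiers are not independent molecules. Log2 ratios use a prior count of 2. No test across replicates was possible. Python 3.11.15, numpy 2.4.6, scipy 1.17.1, pandas 2.3.3 and matplotlib 3.10.9 were used.

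The genes and lists were chosen with earlier results of these data known. Named genes are the 6 PDGF genes, up to 4 genes per pathway list with the largest log2 ratio in 3 comparisons among those reaching 10 CPM, and the 3 nearest profiles per PDGF gene; 1 gene that the rule selects is not reported here. KIT, CSF1R, PIK3R1, STAT5A and SPRY1 were named outside this rule, after their values were seen. Alternatives were other scalings (DESeq2 1.42.0 size factors among them), filters, folds and prior counts, overlapping genes summed, and FPKM ratios.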

Additional observations from a re-analysis of the deposited data

How the results depend on the processing

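Each count of PDGF genes called higher or lower, in 6 comparisons, was recomputed under total-count, upper-quartile and DESeq2 scaling, with no low-count filter, with overlapping genes summed and from FPKM ratios, and none of these moved a count by over 1.5 times. With a 3-fold rule, 0 genes were lower with RVX-208 against TGF-β and 1 was higher with RVX-208 against the control. With a filter of 5 CPM, which leaves out PDGFRA, that last count was also 1. A 1.5-fold rule kept every count within 1.5 times. The shares of all genes called under these other folds and the 5 CPM filter are not given here, so these counts have no background beside them. Of 36 log2 ratios, 3 moved outside their counting intervals under total-count scaling and under FPKM ratios, all of PDGFC: 0.43 with TGF-β, -1.55 with BDS4 and 0.46 with RVX-208, each against the control, with total-count scaling. No sign of a called ratio changed under these alternatives. Total-count scaling shifted all genes by -0.17 on the log2 scale for BDS4 against control and by -0.10 for RVX-208 against control. It changed the split of all called genes for BDS4 against control to 1889 higher and 3520 lower, where TMM gave 2400 and 2932. The ligand shares were also computed with GENCODE 29 exon lengths, an alternative chosen after seeing the data, and PDGFC then made up 48.6% with BDS4, 65.7% with RVX-208, 59.0% with TGF-β and 72.9% in the control. No paired analysis was possible because each group has 1 library, and for the same reason no library, including that with BDS4, could be left out. Depth limits PDGFRA, at 11 to 50 counts, and PDGFB with BDS4, at 39 counts.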

Other observations

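The vascular endothelial growth factors are the nearest relatives of the PDGF ligands, and 4 of 5 of their genes were measured. With BDS4 against TGF-β, 1 of 4 rose and 2 fell (median log2 ratio -0.57), beside 14.5% and 17.7% of all genes. VEGFC, a lymphatic growth factor, had 7.70 CPM with BDS4, 64.2 with RVX-208, 67.2 with TGF-β and 38.9 in the control, and its fall with BDS4 was 8.73-fold (7.40 to 10.4). VEGFB fell 3.34-fold (3.10 to 3.61), PGF, placental growth factor, rose 2.44-fold (2.10 to 2.84), and VEGFA stood at 59.2 CPM with BDS4 and 39.1 with TGF-β. With TGF-β against control and with RVX-208 against TGF-β, 0 of 4 were called in either direction, beside 9.68% and 8.19% of all genes.

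Among receptors related to the PDGF receptors, 5 of 6 were measured, and 3 rose and 1 fell with BDS4 against TGF-β (median 1.65), beside 14.5% and 17.7% of all genes. FLT1, a receptor for VEGF-A, VEGF-B and PGF, had 675 CPM with BDS4, 216 with TGF-β and 115 in the control, and rose 3.13-fold with BDS4 (3.03 to 3.24). KDR, the main signalling receptor for VEGF-A, had 10.2 CPM with BDS4 and 2.90 with TGF-β. FLT4, the receptor for VEGF-C, stood at 33.4 CPM with BDS4, 40.0 with RVX-208, 38.2 with TGF-β and 51.2 in the control. CSF1R and KIT, both below 10 CPM in every library, moved in opposite directions. With BDS4 against TGF-β, CSF1R fell 6.81-fold (4.02 to 12.3) and KIT rose 5.75-fold (3.35 to 10.5). With TGF-β against control, CSF1R was 5.32-fold higher (3.41 to 8.63) and KIT 3.29-fold lower (1.87 to 6.15). Counts were low, 16 for CSF1R with BDS4 and 16 for KIT with TGF-β. With RVX-208 against TGF-β, 0 of 5 rose and 1 fell (median -0.02), beside 2.94% and 5.25% of all genes. With TGF-β against control 1 rose and 1 fell (median -0.42), beside 5.32% and 4.37% of all genes. The part of RNA quality in the BDS4 library in these differences was not tested.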
